A study of Schizosaccharomyces pombe with 2 samples.

Results

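The genes at the left end of chromosome I of fission yeast (Schizosaccharomyces pombe) were described in a tup11 tup12 mutant and in wild-type cells. They were chosen by name: every array feature called after the cosmids SPAC212, SPAC977, SPAC1F8, SPAC11D3 or SPAC5H10, which lie in that order from the telomere inward, with 5 named features left out (SPAC1F8.02c, SPAC1F8.03c, SPAC1F8.06, SPAC1F8.07c and SPAC5H10.06c). The rule gave 56 genes of the 4953 gene features on the arrays, 51 protein-coding and 5 pseudogenes. They run from tlh1, the first gene of the chromosome in the ASM294v3 gene table, to gmh2 at position 71. The other 15 genes or pseudogenes in that stretch did not belong to the set.

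The mutant group, labelled Tup11,12D, was compared directly with the group labelled WT on 2 spotted arrays with exchanged dyes, so n = 2 throughout. Cells of both strains were harvested in logarithmic growth in rich medium, and the labels name YES medium and 30 degrees for the mutant of array 1. Per the series design text, each array had its own RNA preparation. Whether the cultures were independent is not given in the sources used here, so p-values reflect the spread between these 2 arrays, which may be technical. The fit pools that spread over all features. Each p-value thus rests mostly on the pooled spread and not on the SD printed beside it. The columns name neither strain nor dye. Reading the first channel as the mutant on both arrays is likely but not stated. All signs depend on it and would be inverted if the channels were the reverse.

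Tup11 and Tup12 are a pair of related corepressors of the Tup1 type, which lower transcription of the genes to which DNA-binding proteins bring them. Genes near fission yeast telomeres lie in or beside heterochromatin, which needs methylation of histone H3 at lysine 9 and proteins such as Swi6, and many of them are weakly transcribed in growing cells. The stretch nearest the telomere holds tlh1, a telomere-linked gene for a RecQ-type DNA helicase, followed by genes for transporters, cell-surface proteins and metabolic enzymes. No sequences of these genes are printed, because no sequence table was used here.

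As a check of the strains, the feature matched to tup11 had log2 ratios (mutant over wild type) of 0.95 and -0.11 on arrays 1 and 2, a mean of 0.42 ± 0.75 (SD, n = 2, limma adjusted p = 0.493). A feature named tup1 on the array matched no gene in the table and fell in the mutant, at -2.37 and -1.86 (mean -2.11 ± 0.36, SD, n = 2, limma adjusted p = 0.000555). Which part of either gene these features read is not given in the sources used here. Median raw signals of gene spots were between 1339.5 and 4237 over the 4 channels.

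Of the 56 genes, 4 fell in the mutant and none rose. The absence of higher genes depends on how the set was drawn. Of the 5 features left out by name, 4 had a value, and shu1 (SPAC1F8.02c), str3 (SPAC1F8.03c) and pfl8 (SPAC1F8.06) rose. That list was made with earlier results known. The genes that fell were tlh1, SPAC977.12, SPAC977.14c and SPAC11D3.02c, by 1.89- to 2.78-fold. For SPAC11D3.02c, at the upper end of that range, the mutant signal was above background on 1 of the 2 arrays. A value on both arrays was at hand for 54 genes, so these 4 are 7.41% of them, while 3.26% of all 4810 features tested were called by the same rule (limma, Benjamini-Hochberg adjusted p under 0.05). By direction, 0.936% of all features were lower and 2.33% were higher, that is 45 and 112 features. That split was 188 and 210 with a loess curve for each print block and 5 and 33 with median centring. At an unadjusted p under 0.05, 9 of the 54 genes were lower and 4 were higher, against 8.11% and 7.86% of all features. SPAC212.06c and pfl6 (SPAC977.07c), a gene for a flocculin-like cell-surface protein, had no usable spot on array 1 and were not tested.

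**Figure D1:**
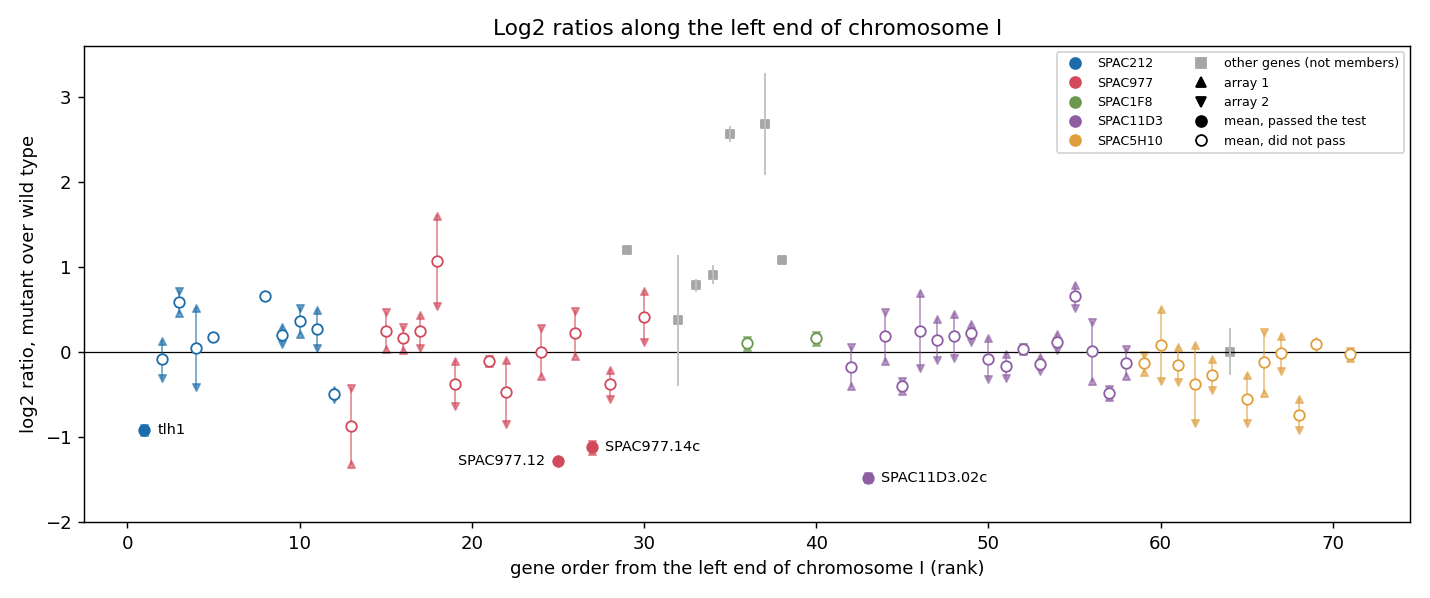
Log2 ratios of mutant over wild type (vertical axis) for the 54 genes with a value on both arrays, by rank of the gene from the left end of chromosome I (horizontal axis). Circles are means, filled where the gene passed the test, triangles are the arrays, lines join the arrays, and grey squares are genes of the stretch outside the set. The 4 filled circles lie between -0.92 and -1.47, and no circle above 0 is filled.

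The gene that fell most was SPAC11D3.02c, which encodes a predicted acetyltransferase. Its normalised signals were 1881 and 1276 in the mutant on arrays 1 and 2, against 5273 and 3513 in wild type. Both mutant signals lay below both wild-type signals. The share of all features without overlap of the strains was not counted, here or for the genes below. Such a reading also sets signals of different arrays side by side, unlike the ratios. The log2 ratios of -1.49 and -1.46 differed little, with a mean of -1.47 ± 0.018 (SD, n = 2, 2.78-fold lower, limma adjusted p = 0.00278). Its 2 spots lay further apart, at -1.59 and -1.39 on array 1 and -1.33 and -1.60 on array 2. Its mutant signal passed the background limit on array 1 alone, so the ratio of array 2 and the mean fold rest on a mutant level that was not well above background there. Here a signal counts as well above background where it exceeds that of 95 percent of 96 spots carrying the bacterial genes aceF and kdtA, read in the same channel.

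SPAC977.12 encodes a predicted L-asparaginase, an enzyme that hydrolyses asparagine. Its signals were 3421 and 6812 in the mutant, against 8159 and 16778 in wild type. The lower of the wild-type signals exceeded the higher of the mutant signals. The log2 ratios of -1.25 and -1.30 gave a mean of -1.28 ± 0.033 (SD, n = 2, 2.42-fold lower, limma adjusted p = 0.0072), with 1 of its 2 spots kept on array 2.

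SPAC977.14c, close by at rank 27 against rank 25, encodes a member of the aldo/keto reductase family. Its signals were 4026 and 5957 in the mutant, against 8994 and 12582 in wild type. Here too the strains did not overlap. The log2 ratios of -1.16 and -1.08 gave a mean of -1.12 ± 0.057 (SD, n = 2, 2.17-fold lower, limma adjusted p = 0.015). Its 2 spots gave -1.13 and -1.19 on array 1 and -1.47 and -0.69 on array 2.

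The helicase gene tlh1 (SPAC212.11) had signals of 1685 and 2293 in the mutant, against 3238 and 4247 in wild type. Both mutant signals were again below both wild-type signals. Its log2 ratios of -0.94 and -0.89 gave a mean of -0.92 ± 0.038 (SD, n = 2, 1.89-fold lower, limma adjusted p = 0.0405). The 2 spots of tlh1 gave -0.93 and -0.96 on array 1 and lay further apart on array 2, at -0.71 and -1.07. A near-identical helicase gene, tlh2, lies at another chromosome end and is not analysed here, so a spot may read both. The moderated 95% interval of the mean log2 ratio was -1.36 to -0.47 for tlh1, and -1.92 to -1.03 for SPAC11D3.02c. None of the 4 genes was called with median centring or with the authors' deposited values, and only SPAC11D3.02c was called with plain background subtraction. With scaling between arrays, tlh1 alone of the 4 genes was not called. Their log2 ratios stayed negative over the settings tried, between -1.03 and -0.72 for tlh1, -1.40 and -1.19 for SPAC977.12, -1.22 and -1.02 for SPAC977.14c, and -1.69 and -1.23 for SPAC11D3.02c.

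**Figure D2:**
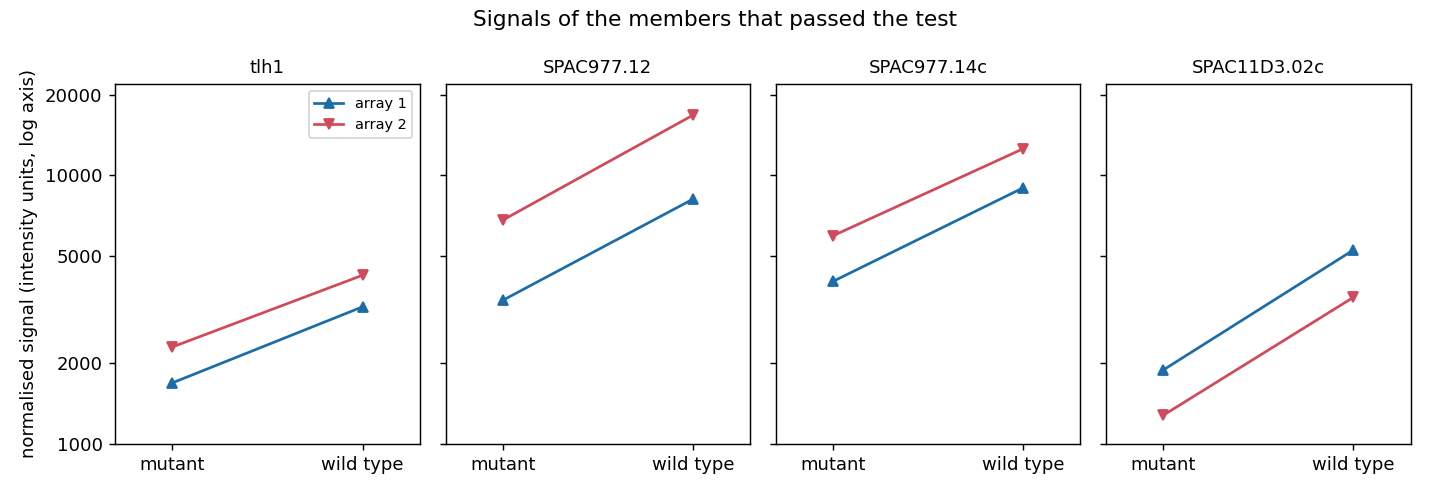
Normalised signal in intensity units on a logarithmic vertical axis for the mutant (left in each panel) and wild type (right) of the 4 genes that passed the test. Each line joins the strains on 1 array, and all 8 lines run upward to wild type, with the mutant of SPAC11D3.02c on array 2 the lowest point at 1276.

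In the authors' deposited table, converted from log10 to log2, SPAC11D3.02c stood at -1.54 and -1.83 on arrays 1 and 2. The authors' deposited table gave -1.33 and -1.21 for SPAC977.12. For SPAC977.14c the authors' deposited table gave -1.25 and -1.20. For tlh1 the authors' deposited table gave -1.01 and -1.05. All 8 of these values have the sign found from the scanner signals. They come from the same 2 arrays, and their direction was read from those signals. The shared sign is therefore no independent support.

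The outermost cosmid, SPAC212, had 10 genes with a value and a median log2 ratio of 0.19, with 6 of them positive on both arrays and 2 negative on both. Beside tlh1, the pseudogene SPAC212.09c had the brightest signals of the whole set, at 75893 and 50713 in the mutant and 55070 and 30813 in wild type. Its log2 ratios of 0.46 and 0.72 gave a mean of 0.59 ± 0.18 (SD, n = 2, limma adjusted p = 0.187), and 1 of its spots was saturated. On array 1 only 1 spot was kept, at 63711.5 in the mutant and 64927 in wild type after background subtraction. The saturation value is 65535, so the ratio of array 1 rests on signals near that limit. The neighbouring pseudogene SPAC212.10 had 0.13 and -0.30 (mean -0.086 ± 0.31, SD, n = 2, limma adjusted p = 0.886). The pseudogene SPAC212.05c had a mean of 0.66 with almost equal arrays, but was well above background in no channel, and its limma adjusted p was 0.128. Mean log2 ratios of the others were 0.053 for SPAC212.08c, 0.18 for the pseudogene SPAC212.07c, 0.20 for SPAC212.04c, 0.37 for SPAC212.03, 0.27 for SPAC212.02 and -0.50 for SPAC212.01c. SPAC212.08c and SPAC212.01c were each well above background in 1 of 4 channels, and the remaining 4 in none.

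The next cosmid, SPAC977, held 2 of the genes that fell and also the highest mean log2 ratio of the set. Over its 14 genes with a value the median was -0.052, with 5 positive and 7 negative on both arrays. That highest value belonged to SPAC977.05c, at 1.60 and 0.55 (mean 1.07 ± 0.75, SD, n = 2, limma adjusted p = 0.0638). It was well above background in neither strain on either array, so no fold is given. ftm1 (SPAC977.01), the first of the cosmid, had -1.32 and -0.43 (mean -0.87 ± 0.63, SD, n = 2, limma adjusted p = 0.109). Array 1 thus gave a much lower ratio than array 2 for ftm1. It was above background in all 4 channels and had 1 spot kept on array 2.

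Among the transporters and enzymes of SPAC977, no gene other than SPAC977.12 and SPAC977.14c passed the test. plb4 (SPAC977.09c), a phospholipase B homologue, had -0.087 and -0.85 (mean -0.47 ± 0.54, SD, n = 2, limma adjusted p = 0.372). SPAC977.17, a water channel of the MIP family, had 0.72 and 0.11 (mean 0.41 ± 0.42, SD, n = 2, limma adjusted p = 0.411). The arrays differed widely for both. fex1 (SPAC977.11), which exports fluoride, had -0.28 and 0.28, which cancel to a mean of -0.00015 ± 0.40 (SD, n = 2, limma adjusted p = 0.9997). ayr2 (SPAC977.08), named for the budding yeast acyl-dihydroxyacetone phosphate reductase, had -0.13 and -0.083 (mean -0.10 ± 0.031, SD, n = 2, limma adjusted p = 0.847) and was above background in no channel. ftm2 (SPAC977.02) had 0.037 and 0.47 (mean 0.25 ± 0.31, SD, n = 2, limma adjusted p = 0.623), also above background in no channel. The arrays had opposite signs for fex1 alone among these 5 genes. The pseudogene SPAC977.13c had -0.040 and 0.49 (mean 0.22 ± 0.37, SD, n = 2, limma adjusted p = 0.690). The remaining means were 0.16 for SPAC977.03, 0.24 for SPAC977.04, -0.37 for SPAC977.06 and -0.38 for SPAC977.15, a dienelactone hydrolase family gene. None of these 4 was well above background in any channel.

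Only 2 genes represented SPAC1F8 after the named features were left out, and both were close to 0. hhy1 (SPAC1F8.04c) had log2 ratios of 0.065 and 0.15 (mean 0.11 ± 0.059, SD, n = 2, limma adjusted p = 0.845) and was above background in all 4 channels. SPAC1F8.08 had a mean of 0.16 and was above background in none. Other genes of the same stretch did rise. Of 8 measured genes outside the set, 5 were called higher, among them str3, an iron-siderophore transporter gene, at 2.56 ± 0.11 (SD, n = 2, limma adjusted p = 0.000104), and isp3 at 2.68 ± 0.83 (SD, n = 2, limma adjusted p = 0.000596). Of the genes called higher, shu1 (SPAC1F8.02c), str3 and pfl8 (SPAC1F8.06) are features left out by name, a list made with earlier results known. Others, isp3 among them, lie outside because their array names do not begin with a listed cosmid. The contrast with them describes how the set was drawn.

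SPAC11D3 gave 17 genes with a median log2 ratio of 0.010, of which SPAC11D3.02c alone passed the test. The arrays had opposite signs for 8 of them, with 4 positive and 5 negative on both. The highest was SPAC11D3.15, a predicted 5-oxoprolinase of glutathione breakdown, at 0.79 and 0.52 (mean 0.66 ± 0.19, SD, n = 2, limma adjusted p = 0.139). Its signals were 2031 and 1415 in the mutant, against 1174 and 986 in wild type, without overlap. On array 2 its 2 spots had opposite signs, at 1.16 and -0.11. The predicted 5-oxoprolinase next to it, SPAC11D3.14c, had a mean of 0.12. SPAC11D3.08c, an amino acid transporter gene, had 0.33 and 0.12 (mean 0.22 ± 0.14, SD, n = 2, limma adjusted p = 0.652). SPAC11D3.17, a C2H2 zinc finger gene, had -0.53 and -0.44 (mean -0.48 ± 0.064, SD, n = 2, limma adjusted p = 0.269). None of these differences passed the test.

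Of the genes of SPAC11D3 with a symbol, none passed the test. mfs2 (SPAC11D3.05), a transporter of the major facilitator superfamily, had 0.69 and -0.19 (mean 0.25 ± 0.62, SD, n = 2, limma adjusted p = 0.689). toe4 (SPAC11D3.07c), a zinc-cluster transcription factor gene, had 0.38 and -0.089 (mean 0.15 ± 0.33, SD, n = 2, limma adjusted p = 0.797). Both changed sign between the arrays. mfs2 was well above background in 1 of 4 channels and toe4 in none. hsp3104 (SPAC11D3.13), of the DJ-1 and Hsp31 family, had -0.062 and -0.22 (mean -0.14 ± 0.11, SD, n = 2, limma adjusted p = 0.794). The other means were -0.17 for SPAC11D3.01c, 0.19 for SPAC11D3.03c, -0.40 for SPAC11D3.04c, 0.19 for the MATE-type transporter SPAC11D3.06, -0.078 for the agmatinase SPAC11D3.09 and -0.16 for SPAC11D3.10. They were 0.038 for SPAC11D3.11c, 0.010 for SPAC11D3.16c and -0.12 for the predicted nicotinic acid transporter SPAC11D3.18c. SPAC11D3.03c and SPAC11D3.06 were well above background in no channel, SPAC11D3.01c and SPAC11D3.18c in 1 of 4, and SPAC11D3.10 in 2. SPAC11D3.06 was the gene with 4 spots on each array, and the rest of the set had 2.

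The innermost cosmid, SPAC5H10, had no gene past the test among 11 (limma, 2 genes at an unadjusted p under 0.05, both lower) and a median of -0.13. The lowest was SPAC5H10.10, an NADPH dehydrogenase of the old yellow enzyme family, with signals of 1988 and 1914 in the mutant, against 2922 and 3617 in wild type. The strains did not overlap, and its log2 ratios of -0.56 and -0.92 gave a mean of -0.74 ± 0.26 (SD, n = 2, limma adjusted p = 0.104). SPAC5H10.04, of the same enzyme family, had a mean of -0.27 and was above background in no channel. SPAC5H10.03, the brightest of the cosmid, had 0.063 and -0.36 (mean -0.15 ± 0.30, SD, n = 2, limma adjusted p = 0.795), and 1 of its spots was saturated. SPAC5H10.05c and SPAC5H10.07, with means of -0.37 and -0.55, were above background in no channel.

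The named genes of SPAC5H10 all had mean log2 ratios within 0.14 of 0. Of these, dgc1, hsp3102 and pan6 were well above background in no channel, and ecm31 in 1 of 4. gmh1 and gmh2 passed that limit in all 4 channels. pan6 (SPAC5H10.08c) and ecm31 (SPAC5H10.09c) lie side by side and both act in pantothenate synthesis. pan6 had -0.48 and 0.24 (mean -0.12 ± 0.51, SD, n = 2, limma adjusted p = 0.848). ecm31 had 0.19 and -0.22 (mean -0.013 ± 0.29, SD, n = 2, limma adjusted p = 0.986). The arrays disagreed in sign for both. dgc1 (SPAC5H10.01), for a D-glutamate cyclase, had -0.23 and -0.031 (mean -0.13 ± 0.14, SD, n = 2, limma adjusted p = 0.806). hsp3102 (SPAC5H10.02c), of the DJ-1 and Hsp31 family, had 0.50 and -0.34 (mean 0.083 ± 0.59, SD, n = 2, limma adjusted p = 0.906). gmh1 (SPAC5H10.11) and gmh2 (SPAC5H10.13c) belong to a galactosyltransferase family of the secretory pathway. Their arrays lay close together, at 0.14 and 0.064 for gmh1 (mean 0.10 ± 0.052, SD, n = 2, limma adjusted p = 0.857) and at -0.064 and 0.011 for gmh2 (mean -0.026 ± 0.053, SD, n = 2, limma adjusted p = 0.968).

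The 54 genes were split evenly by direction. Ratios were positive on both arrays for 18, negative on both for 18 and of opposite sign for 18. Opposite signs made up 33.3% of these genes, beside 40.2% of all features. The median of their mean log2 ratios was -0.0068, beside 0.0068 for all features, and 79.6% lay within 0.5 of 0, beside 86.0% of all. Across these genes, which are not independent replicates, the ratios of the arrays correlated with r = 0.63 (Spearman rho = 0.50), and across all features with r = 0.55 (rho = 0.34). The median difference in log2 ratio between the 2 kept spots of a gene of the set was 0.37 on array 1 and 0.52 on array 2. A change of at least 2-fold on both arrays was found for 3 of the genes, all lower, beside 0.374% of all features lower and 1.52% higher. By the strand in their names, the 28 forward genes had a median of -0.095 and the 26 reverse genes a median of 0.045.

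**Figure D3:**
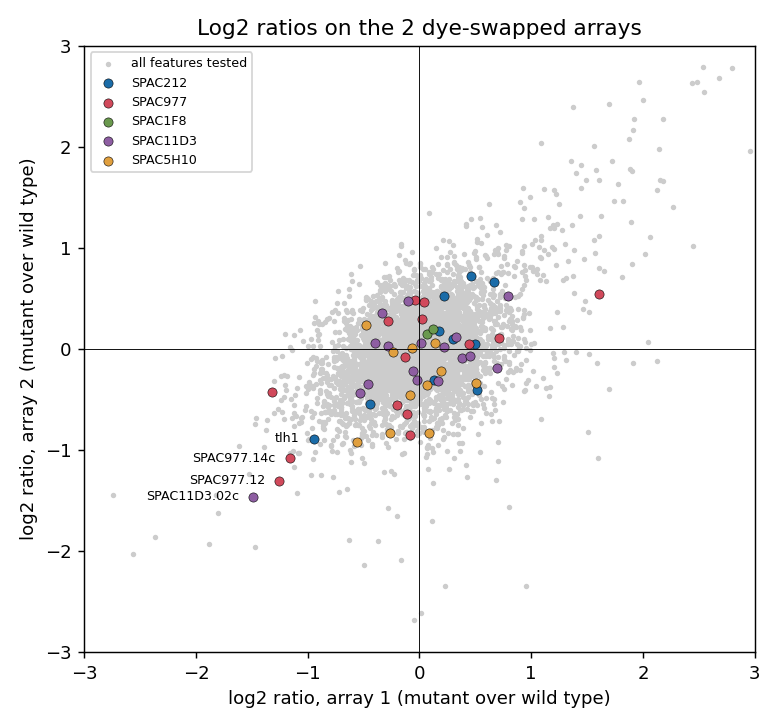
Log2 ratio of mutant over wild type on array 1 (horizontal axis) and array 2 (vertical axis) for all features tested (grey) and the 54 genes, coloured by cosmid. The 4 named genes lie near the diagonal at the lower left, and 14 features beyond 3 on either axis are not drawn.

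Many genes of the set were dim. In 22 of 54 the signal was well above background in no channel, or 40.7%, while this held for 12.5% of all features. Another 22 passed the limit in all 4 channels and 10 in 1 to 3. The median normalised signal over both strains and arrays was 814 for the set and 1927 for all features. Signals of different features depend on their probes, so these levels describe spots and not transcript numbers. In dim spots the added offset draws a ratio toward 0, so a difference between the strains may not be detectable there.

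**Figure D4:**
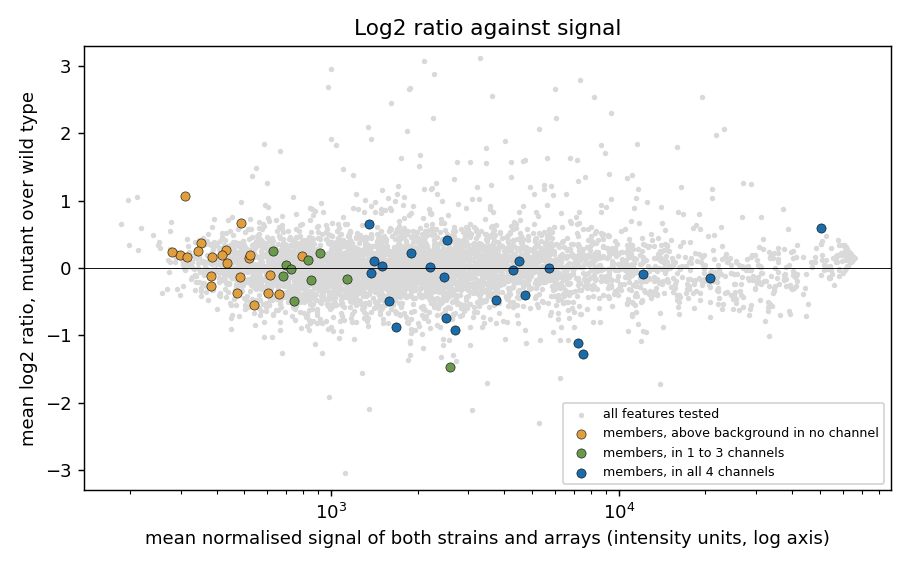
Mean log2 ratio of mutant over wild type (vertical axis) against the mean normalised signal of both strains and arrays in intensity units (horizontal log axis) for all features (grey) and the 54 genes, coloured by the number of channels well above background. The 22 genes above background in no channel lie at the left, and the 4 genes that passed the test have signals well to their right. A further 6 features beyond 3.3 are not drawn.

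Equal numbers of features from other chromosome regions were set beside the left end of chromosome I as a description. The next 54 features inward on the same arm had a median log2 ratio of -0.043 and none called by limma, with 5 higher and 5 lower at an unadjusted p under 0.05. The right end of chromosome I had a median of 0.12, with 3 called higher and 3 lower. The left end of chromosome II had a median of -0.020, with 4 higher and 1 lower. The right end of chromosome II had a median of -0.0034, with 2 higher and 2 lower. The outermost features used on chromosome II were gene 30 from its left end and gene 10 from its right end. The set began with gene 1, so these regions do not start equally near the telomere. The set at the left end of chromosome I had 0 higher and 4 lower. Of 8 measured genes of that stretch outside the set, 5 were called higher and 0 lower. Among those called higher, shu1, str3 and pfl8 were left out by name. No feature was left out by name at the other ends, so the counts do not come from regions drawn alike. The difference itself was not tested. Dim features, above background in no channel, were 40.7% of the set, 9.26% of the next features inward, 29.6% at the right end of chromosome I and 18.5% at either end of chromosome II.

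**Figure D5:**
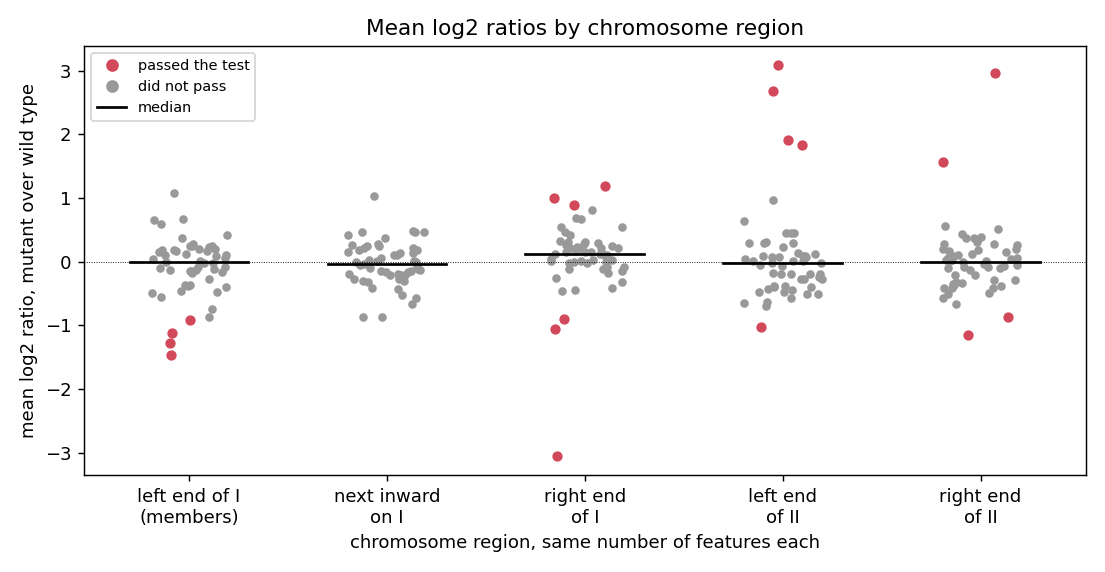
Mean log2 ratio of mutant over wild type (vertical axis) for 54 features of each chromosome region (horizontal axis), with red points for features that passed the test and a black line for the median. The red points of the left end of chromosome I all lie below 0, and each other chromosome end has red points on both sides. Genes of the left stretch outside the set, 5 of 8 of them called higher, are not drawn, while the other ends had no features left out by name. The regions of chromosome II begin at gene 30 from the left end and gene 10 from the right end.

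Several of the genes have relatives by symbol elsewhere in the genome. ftm4 (SPAC750.05c), near the right end of chromosome I, fell in the mutant at -0.79 and -1.01 (mean -0.90 ± 0.16, SD, n = 2, limma adjusted p = 0.0464), beside the mean of -0.87 for ftm1, which did not pass. ftm3 had a mean of 0.17 and ftm7 a mean of -0.057, beside 0.25 for ftm2. These 3 were above background in no channel. The other phospholipase B genes had means of 0.64 for plb2, 0.58 for plb3 and -0.14 for plb5, beside -0.47 for plb4, and none passed the test. Of the measured relatives of the other genes, only mfs3 and pfl8 passed the test. Those that did not were mfs1, ayr1, pfl2, pfl3, pfl4, pfl5, pfl7, pfl9, gmh4, gmh5 and gmh6. Nor did hsp3101, hsp3103, hsp3105, toe1, toe2, toe3, pan1, pan2, pan3 or pan5 pass. mfs3 rose at 1.22 and 1.54 (mean 1.38 ± 0.22, SD, n = 2, limma adjusted p = 0.00544), beside the mean of 0.25 for mfs2. The flocculin gene pfl8 (SPAC1F8.06), which lies in the same stretch but outside the set, rose at 1.09 and 1.08 (mean 1.09 ± 0.003, SD, n = 2, limma adjusted p = 0.0169), while pfl6 was not tested. Related genes can share probe sequence, and how far a spot reads a relative was not tested.

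The genes for heterochromatin and telomere proteins form a further group tied to the chromosome ends. Of 43 such genes, 41 had a value, read by 43 features. None was called by limma, with 1 higher and 3 lower at an unadjusted p under 0.05, and the median log2 ratio was -0.036. The highest was chp1, which encodes a chromodomain protein of the RNA-induced silencing complex, at 0.74 and 0.55 (mean 0.64 ± 0.13, SD, n = 2, limma adjusted p = 0.141). The lowest was hrr1, for a helicase of the RNA-directed RNA polymerase complex, at 0.11 and -1.70 (mean -0.79 ± 1.28, SD, n = 2, limma adjusted p = 0.319). The arrays were far apart for hrr1.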

How the data were processed

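Two-colour signals of 2 arrays of 11520 spots were used. The deposited scanner tables hold linear foreground and background intensity values for each channel, per the file headers, and a quality code, whose meaning no source used here gives. The authors deposited log ratios made by Lowess per array, per the series design text. Their scale was read from the values: over spots with quality code 0 they correlated with the log10 ratio of the first over the second channel (mean signals minus background) at r = 0.86 and 0.93 on arrays 1 and 2, and over all usable spots at 0.61 and 0.63. Scale and direction were taken from this. Centring is not stated, and the column medians were -0.01 and 0.02. Mean backgrounds of the first channel were 1.80 and 753, and of the second 408 and 12.5, and the first-over-second ratios of the arrays correlated at 0.55 over all features. From these values the dyes were taken to have changed places between the column blocks, with 1 strain in the first block of both arrays, a reading that no header states. The deposited log10 values were multiplied to log2 for the alternatives.

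For median signals, background was modelled by normexp with an offset of 50, and each array got a single loess curve, in limma 3.58.1 (R 4.3.3), with 1554 control or unnamed spots and spots of code 3 (905 and 765) at weight 0. Code 3 spots were then left out and the spots of a feature averaged. Log2 ratios of 4810 features were fitted with lmFit and eBayes (1 residual and 8.27 prior degrees of freedom), and p-values adjusted by Benjamini-Hochberg at 0.05. Signals per strain came from Aquantile normalisation. Names and gene order came from the ASM294v3 table, which matched 3467 features by systematic name, 945 by symbol and 366 by synonym, with 175 unmatched. Its coordinates were not used.

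The genes, the lists and the background limit were chosen with earlier results of these data known. Features named pi0 were first treated as controls and then as genes after their effect on the counts had been seen. Every gene of the set is named, with full values for those called, for the 2 highest and 2 lowest of each cosmid among genes above background in at least 1 strain on both arrays, and for those with a symbol. SPAC977.05c and SPAC212.05c were given in more detail after their values were seen. Copies were to be compared by protein identity, but no protein table was used here, so relatives were taken by symbol, with stems chosen after the files were seen. The number of arrays limits the precision.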

Additional observations from a re-analysis of the deposited data

Results flagged for a closer look

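A spot outside the gene comparison, named c977_sanger_2 after the cosmid of SPAC977 and counted as a control, carried signal above the bacterial control spots in all 4 channels. Its log2 ratio of mutant over wild type was -0.042 on array 1 and -0.38 on array 2, a mean of -0.212. What it reads is not given in the sources used here. A like spot of the neighbouring cosmid, c212_sanger_1, was above the control spots in 0 of the channels, and c212_sanger_6 had no usable value.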

How the results depend on the processing

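The 4 genes called lower (157 features called in all) were refitted under 11 other settings and under 4 chosen after seeing the data, and no called gene changed sign in any. Normexp with offset 0 and counting pi0 features as controls called the same 4 genes, and scaling between arrays called 3 of them, without tlh1. Counts of the set and of all features were 1 lower and 57 with plain subtraction, 9 (2 higher, 7 lower) and 339 without background subtraction, 8 (2 higher) and 398 with print-tip loess, 0 and 38 with median centring, and 7 (1 higher) and 389 with mean signals. They were 6 (1 higher) and 256 with code 3 kept, 4 (1 higher) and 280 with only code 0, where 14 genes were tested and SPAC11D3.02c was not, and 6 lower and 274 with only features above background. With median centring, loess is absent, and the cause of the lost calls was not tested. Over these settings 6 further genes passed somewhere: ftm1 in 5, SPAC5H10.10 in 4, SPAC977.05c and SPAC11D3.15 in 3 each, SPAC212.09c and SPAC212.01c in 1 each. Uncalled genes changed sign 69 times over the settings.

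The authors' deposited values were handled in 4 ways and all counts were seen, so this choice is not independent of the result. All values gave 0 genes of the set and 11 features called, leaving out values at the floor 0 and 46, leaving out code 3 spots 0 and 8, and leaving out both 0 and 0.

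Medians also moved. That of the whole set was -0.064 with plain subtraction and with print-tip loess, -0.32 with median centring, -0.080 with only code 0, -0.086 with only features above background, and -0.12, -0.066, -0.15 and -0.071 with the deposited values (all, floor out, code 3 out, both out). SPAC212 moved to 0.042 (plain subtraction), -0.10 (median centring), 0.037 (mean signals), -0.067 (code 0), -0.086 (above background), -0.53 (deposited, all) and -0.57 (code 3 out). SPAC977 moved to -0.41 (median centring), -0.56 (code 0), -0.47 (above background), -0.37 (deposited, all and code 3 out) and -0.13 (the other deposited handlings). SPAC1F8 moved to 0.19 (plain subtraction), -0.12 (median centring), 0.044 (code 0) and 0.29 (each deposited handling). SPAC11D3 moved to -0.045 (no subtraction), -0.10 (print-tip and code 0), -0.26 (median centring), 0.051 (mean signals), -0.11 (above background) and -0.066 (each deposited handling). SPAC5H10 moved to -0.50 with median centring.

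The next features inward moved to 0.014 without subtraction and -0.15 with code 0, and the right end of chromosome II to -0.20 with median centring. The right end of chromosome I moved to 0.14 (plain and no subtraction), 0.15 (offset 0), 0.10 (print-tip), -0.18 (median centring), 0.091 (mean signals), 0.0062 (code 0), 0.027 (above background), 0.14 (deposited, floor out and both out) and 0.079 (code 3 out). The left end of chromosome II moved to -0.048 (plain), -0.030 (no subtraction), 0.00064 (print-tip), -0.20 (median centring), -0.051 (scaling), -0.033 (mean signals), -0.041 (code 3 kept), -0.059 (code 0), 0.0084 (above background), -0.042 (deposited, all), -0.029 (floor out and code 3 out) and -0.0083 (both out). On arrays 1 and 2 alone the medians were 0.019 and -0.048 for the set, -0.019 and -0.066 for SPAC11D3, -0.064 and -0.34 for SPAC5H10, 0.0043 and -0.050 for the next features inward, 0.12 and 0.10 for the right end of chromosome I, and -0.060 and -0.054 for the left end of chromosome II. Each array holds both strains and the fit used their ratio on that array, so it was already paired by array. The labels give 1 group. Signal over background limits the 22 dim genes.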
